A study of Mus musculus with 4 samples.

Results

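Dendritic cells of photothrombotic (PT) brain lesions were picked out of single-nucleus transcriptomes by 6 of their genes. A lesional nucleus with at least 757 gene UMIs was taken when Flt3, Zbtb46, Clec9a, Ccr7, Zfp366 and Btla together had 3 or more UMIs and Flt3 had at least 1. A UMI is a unique molecular identifier, counted once per captured transcript. Nuclei with any UMI of Cd163, F13a1, P2ry12, Cd3e or Themis were left out, as were those with more than 1 UMI over Bnc2, Slc17a7, Gad2, Aqp4 and Flt1, which mark other cells of the lesion. The rule found 53 nuclei among the 16490 lesional nuclei of that depth, 20 of 8321 in the control-labelled library and 33 of 8169 in the Cxcl12-cKO-labelled library, out of 23489 barcodes in the series. Levels of the genes named in the rule chose these nuclei, so they are given as description and nothing is read from them.

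The study asked how CXCL12 made by fibroblasts shapes the immune cells of a brain lesion. All mice had a PT injury, in which a circulating dye is activated by light through the skull, and were examined at 21 days post-injury (dpi). Mice labelled Cxcl12-cKO carried Col1a2(creER), a tamoxifen-inducible Cre recombinase driven in fibroblasts, and Cxcl12(flox), and mice labelled control were WT. Tissue of 1 male and 1 female mouse was pooled in each genotype and sequenced as 1 library, and the age of these mice is not in the labels. The lesion was told apart from the surrounding parenchyma by oligonucleotide tags bound to the nuclei. The tags read from the lesions are shown because they decide which nuclei count as lesional.
control-labelled lesion tag: GTTGATCTATAACAG
Cxcl12-cKO-labelled lesion tag: GAATCGTGATTCTTC

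Dendritic cells take up antigen in tissues, process it and show it to T cells on MHC molecules. Conventional dendritic cells grow under FLT3 and fall into cDC1, which cross-present antigen on MHC class I and use IRF8 and BATF3, and cDC2, which use IRF4. Either kind can mature, and mature cells switch on CCR7, which guides them towards draining lymph nodes, and genes such as Fscn1 and Relb. In a healthy brain they are found mostly in the meninges and choroid plexus and are scarce in the parenchyma.

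The lesional matrices held 8608 and 8421 barcodes in the libraries labelled control and Cxcl12-cKO, with 34769874 and 31995274 UMIs. Lesional nuclei over the depth minimum had medians of 2941 and 2923 UMIs, so depth was alike in both. No barcode was shared between the regions of a library, 47 were shared between libraries, and none of the 53 dendritic nuclei had a barcode found in the other library. The targeted gene went against the labels, since Cxcl12 stood at 98.6 counts per 1000000 UMIs (CPM) in lesional fibroblast nuclei labelled control and at 208 CPM in those labelled Cxcl12-cKO. The deleted part of Cxcl12 is not given in the labels or the methods, so counts near the 3′ end check nothing about the deletion. The libraries are therefore named by their labels throughout. There was 1 library per genotype and no test was possible. Every interval below is a 95% exact interval that covers counting error only, binomial (Clopper-Pearson) for shares and Poisson for CPM.

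Of the 53 nuclei, 6 went against the label of dendritic cell. These nuclei, 4 in the control-labelled library and 2 in the Cxcl12-cKO-labelled library, held 11 to 38 UMIs of 7 neuron markers, whereas the other 47 held 0 to 2. Their depth was 9832 to 31573 UMIs, against 1010 to 5774 in the 47. Ptprc, which encodes the pan-leukocyte protein CD45, had 0 or 1 UMI in each of the 6 and UMIs in 39 of the 47. None of the 6 had a UMI of Clec9a, Ccr7 or Zfp366, and 2 of them met the rule by Flt3 alone. Among all lesional nuclei of the depth minimum with a Flt3 UMI, 107 of 181 (59.1%) in the control-labelled library and 45 of 134 (33.6%) in the Cxcl12-cKO-labelled library had 5 or more neuron marker UMIs. In the parenchyma these were 633 of 655 and 656 of 676. Parenchymal nuclei over the depth minimum had medians of 17068 and 17925 UMIs. The share of all nuclei with 5 or more neuron marker UMIs is not given here, so nothing is read from these counts about Flt3. Because of the 6 nuclei, values are given for the 53 nuclei and for the 47 without neuron genes, a distinction made after the data were seen. The 6 nuclei weighed heavily on sums, since they carried 70328 of the 100722 UMIs of the rule in the control-labelled library and 43696 of 120285 in the Cxcl12-cKO-labelled library.

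The 47 nuclei had 16 members and 30394 UMIs in the control-labelled library and 31 members and 76589 UMIs in the Cxcl12-cKO-labelled library, with medians of 1885 and 2194 UMIs. Flt3 was found in all 47 by rule, at 1 to 6 UMIs with a median of 2. Zbtb46, a transcription factor of conventional dendritic cells, was found in 34, Zfp366, which encodes the dendritic repressor DC-SCRIPT, in 32, and Btla, an inhibitory receptor, in 23. Clec9a, the cDC1 receptor for dead-cell actin, was found in 9 and Ccr7 in 10, and no nucleus had both. Of the 10 nuclei with Ccr7, 9 also had Zfp366. Just inside the threshold, at a gate sum of 3, lay 7 nuclei of the control-labelled library, 2 of them with neuron genes, and 4 of the Cxcl12-cKO-labelled library, 1 of them with neuron genes. Just outside, at a sum of 2, lay 9 and 6 nuclei, of which 6 and 2 had neuron genes.

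Markers of other myeloid cells had few UMIs in the 47 nuclei. The 8 macrophage markers, among them Csf1r, Mertk and C1qa, had 2 UMIs in the control-labelled library and 9 in the Cxcl12-cKO-labelled library. That was 65.8 and 118 CPM, against 5956 and 6085 CPM in macrophage and microglia nuclei. Gpnmb, Csf1r, Mertk and Adgre1 of this list also chose part of those nuclei, the Gpnmb-high macrophages, so the contrast is given as description. The 8 border-associated macrophage markers had 0 and 4 UMIs, and the 10 monocyte markers had 2 and 9. The rule itself kept Cd163 and F13a1 of the border-associated macrophage list at 0, and likewise Cd3e and Themis of the T cell list. Bnc2 of the fibroblast list could have at most 1 UMI. Low counts of these lists were thus partly set by the rule. The 6 mast cell markers were at 0 in both libraries, and the 6 neutrophil markers had 0 and 4 UMIs. T cell markers had 0 UMIs in the control-labelled library and 17 in the Cxcl12-cKO-labelled library, and 1 nucleus held 12 of these. At 222 CPM they stood above the 23.8 CPM of macrophages and microglia there. Fibroblast markers had 7 UMIs in 3 of 16 nuclei and 34 UMIs in 19 of 31, at 230 and 444 CPM, against 427 and 247 CPM in macrophages and microglia. Oligodendrocyte markers had 7 and 23 UMIs, at 230 and 300 CPM, in 5 and 14 nuclei. The part of these markers in the values that follow was not tested. Nuclei with UMIs of both Xist and Y-linked genes, which hold RNA of both mice, numbered 3 of the 47, 1 in the control-labelled library and 2 in the Cxcl12-cKO-labelled library. No doublet caller was run.

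In a map of all 16490 lesional nuclei over 2000 variable genes and 30 components, the 47 nuclei lay together. Among the 20 nearest neighbours of each, a median of 8 were also among the 47 (range 0 to 12), and 44 had at least 5. None of the 6 nuclei with neuron genes had any. A further 82 nuclei outside the rule, 39 in the control-labelled library and 43 in the Cxcl12-cKO-labelled library, had at least 5 of the 47 as neighbours, at medians of 1638 and 1470 UMIs. These 82 nuclei held 200 UMIs of Wdfy4, 281 of Cd74 and 84 of Relb. They also held 72 UMIs of Siglech and 25 of P2ry12, genes that microglia use.

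Of lesional nuclei, the 53 made up 0.24% (0.147 to 0.371) in the control-labelled library and 0.404% (0.278 to 0.567) in the Cxcl12-cKO-labelled library, a log2 ratio of 0.75 (−0.095 to 1.63) that lay within counting error. Without neuron genes the shares were 0.192% (0.110 to 0.312) and 0.379% (0.258 to 0.538), and the log2 ratio of 0.98 (0.066 to 1.95) leaned towards the Cxcl12-cKO-labelled library by slightly more than counting error. In the female mice the 47-nucleus set gave 10 and 18 nuclei, or 0.289% and 0.527%, with a log2 ratio of 0.87 (−0.32 to 2.15). In the male mice it gave 2 and 4 nuclei, or 0.0718% and 0.157%, with a log2 ratio of 1.13 (−1.68 to 4.59). As a share of the nuclei of all lesional immune gates together, the 47 made up 16 of 959 (1.67%, 0.957 to 2.70) and 31 of 1265 (2.45%, 1.67 to 3.46), a log2 ratio of 0.55. With the 82 neighbouring nuclei counted in, the log2 ratio was 0.45. Animal-to-animal variation could not be assessed.

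The same rule applied to the parenchyma found 14 nuclei in the control-labelled library and 9 in the Cxcl12-cKO-labelled library, and each of these had at least 5 neuron marker UMIs. Clec9a, Ccr7, Zfp366 and Ptprc were at 0 in these 23 nuclei. No parenchymal nucleus without neuron genes met the rule, 0 of 3228 and 0 of 3187, which allows shares of up to 0.0929% and 0.0941% at 3 counts and of up to 0.114% and 0.116% by the exact interval. The control-labelled lesional interval, from 0.110%, reached slightly below the latter.

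Each of the 47 nuclei was then read by the list of subtype genes with the most UMIs, with the genes of the rule kept out of the lists. The cDC1 list led in 10 of 16 nuclei of the control-labelled library and 13 of 31 of the Cxcl12-cKO-labelled library, and the mature dendritic list led in 5 and 12. The mature list had 10 to 51 UMIs in the 17 nuclei it led and 0 to 2 in the other 30, so no nucleus lay in between. In 1 mature-led nucleus labelled control, however, Il12b alone gave 29 of the 30 mature UMIs. That nucleus held 8 UMIs of the cDC1 list, so its place in the mature-led group rested on 1 gene. Among nuclei led by neither list, 3 labelled Cxcl12-cKO were led by the plasmacytoid list, 1 of them with 53 of its UMIs. A further 1 was led by the cDC2 list, and 3 were undecided, 1 of them labelled control. These groups are ranges of a score and not cell types.

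**Figure D1:**
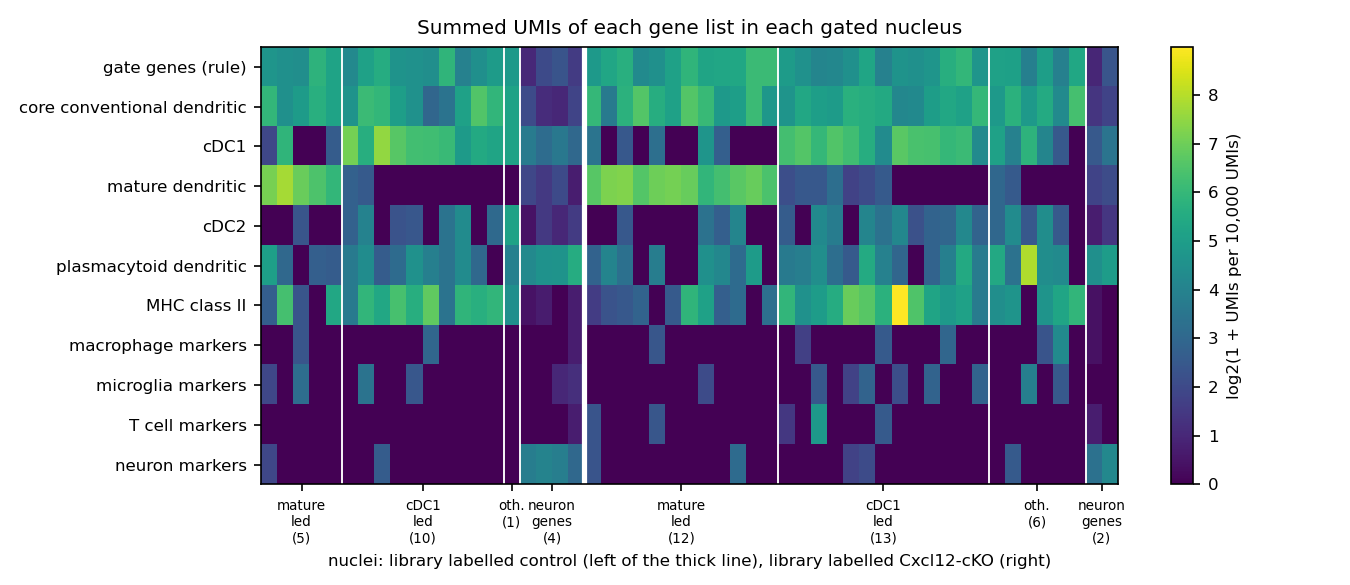
Summed UMIs of each gene list (rows) in each of the 53 nuclei (columns), as log2 of 1 plus scaled UMIs, with the control-labelled library left of the thick line and the Cxcl12-cKO-labelled library right of it, and thin lines between nuclei led by the mature list, by the cDC1 list, by another or no list (oth.) and nuclei with neuron genes. Mature and cDC1 rows light up in different nuclei, and the 6 nuclei with neuron genes are dark in the MHC class II row.

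Subtype shares did not differ between the libraries beyond counting error. The mature list led in 31.3% (11.0 to 58.7) of control-labelled nuclei and 38.7% (21.9 to 57.8) of Cxcl12-cKO-labelled nuclei, and the cDC1 list in 62.5% (35.4 to 84.8) and 41.9% (24.5 to 60.9). In the female mice, 4 of 10 and 7 of 18 nuclei were mature-led. Wdfy4, a vesicle protein needed for cross-presentation, gave most of the cDC1 list's UMIs, with 261 UMIs over the 23 cDC1-led nuclei (2 to 32 in each, median 8) and 12 over the 17 mature-led nuclei, of which 3 had any. With Wdfy4 and Irf8 set aside, 9 of 10 and 10 of 13 cDC1-led nuclei had a UMI of another listed cDC1 gene, and 5 and 8 had 3 or more. The 3 Cxcl12-cKO-labelled nuclei without any held 9 UMIs of the cDC2 list, against 23 over the other 10. Without Wdfy4 in the list, it led 22.6% of the Cxcl12-cKO-labelled nuclei in place of 41.9%. Itgae, which encodes CD103, had 8 and 20 UMIs in cDC1-led nuclei under the control and Cxcl12-cKO labels and none in mature-led nuclei. Naaa, a lysosomal amidase of cDC1, had 7 and 14 UMIs in cDC1-led nuclei and 1 in mature-led nuclei. Irf8 had 28 UMIs over the cDC1-led nuclei and 5 over the mature-led. Xcr1, the cDC1 receptor for XCL1, had 6 and 1 UMIs, all in cDC1-led nuclei. cDC2 genes were sparse, with Irf4 at 0 and 2 UMIs and Cd209a at 1 and 4 over the 16 and 31 nuclei, so a cDC2 group could not be set apart at this depth.

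The mature-led nuclei were read out by Samsn1, an adaptor protein, with 106 UMIs in 16 of 17 nuclei against 2 UMIs over the 23 cDC1-led nuclei. Relb, a noncanonical NF-κB subunit, had 84 UMIs in 15 of 17 nuclei against 3. Fscn1, the actin bundler of mature dendritic cells, had 17 UMIs in 10 nuclei, 1 UMI in the control-labelled library and 16 in the Cxcl12-cKO-labelled library, and none in the other 30 of the 47, while 1 nucleus with neuron genes held 3. Slco5a1, a transporter, had 8 and 34 UMIs in mature-led nuclei and none in cDC1-led ones. All of these chose the group and are given as description. The chemokine genes Ccl22 and Ccl17, which mature dendritic cells can secrete to draw T cells, had 0 and 2 UMIs and 0 and 0 UMIs over the 47 nuclei.

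**Figure D2:**
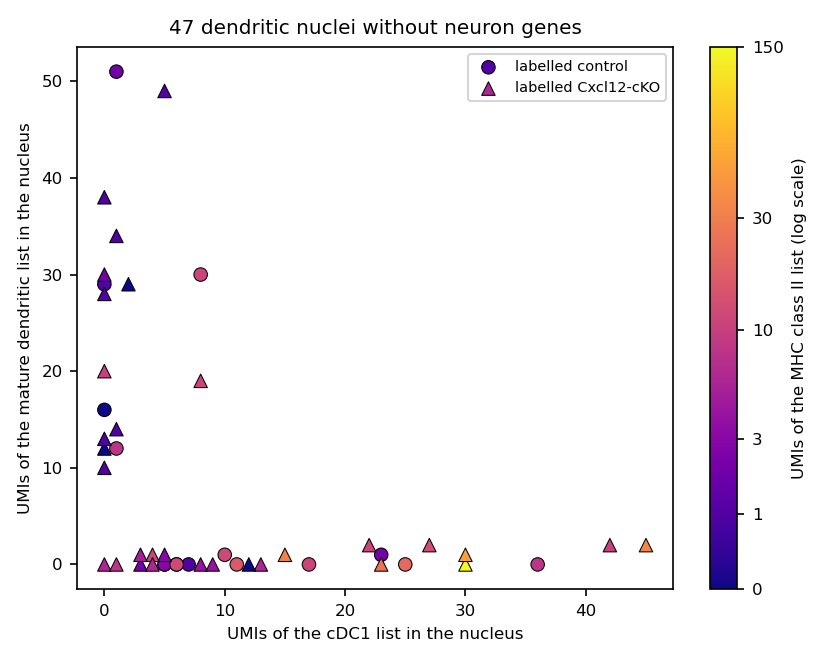
UMIs of the mature dendritic list against UMIs of the cDC1 list in each of the 47 nuclei without neuron genes (circles, labelled control; triangles, labelled Cxcl12-cKO), coloured by UMIs of the MHC class II list on a log scale. The 17 mature-led nuclei have 10 to 51 mature UMIs and the others 0 to 2, and 1 nucleus labelled Cxcl12-cKO holds 150 MHC class II UMIs.

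Genes outside the mature and cDC1 lists also split along these groups. Since nuclei were sorted by their own counts, the differences are described and not tested. Of 587 genes with at least 10 UMIs over both groups in each library, 20.3% were 2-fold or more higher in mature-led than in cDC1-led nuclei in both libraries and 12.9% were lower in both. MHC class II genes were the main group on the cDC1 side, with 3 of 5 measured members, Ciita, Cd74 and H2-Eb1, 2-fold or more lower in mature-led nuclei in both libraries and none higher. Summed over its 11 genes, the MHC class II list stood at 1966 CPM in mature-led and 5508 CPM in cDC1-led nuclei of the control-labelled library, a log2 ratio of −1.46 (−2.22 to −0.81). Of the 22 mature-led UMIs there, 11 lay in the nucleus whose place rested on Il12b. Without it, mature-led nuclei stood at 1121 CPM and the log2 ratio was −2.24 (−3.35 to −1.40). In the Cxcl12-cKO-labelled library the list stood at 1093 and 9262 CPM, a log2 ratio of −3.06 (−3.67 to −2.54), and 1 nucleus held 150 of the 350 cDC1-led UMIs there. Without that nucleus, cDC1-led nuclei stood at 5743 CPM and the log2 ratio was −2.37 (−3.00 to −1.84). Ciita, the master regulator of MHC class II transcription, had a UMI in 18 of the 23 cDC1-led nuclei, 61 UMIs in all, and in 1 of the 17 mature-led, with 2 UMIs. Cd74, the invariant chain, had 141 UMIs in 19 cDC1-led nuclei, of which 1 held 56, and 13 UMIs in 9 mature-led nuclei. H2-Aa had 61 and 15 UMIs, H2-Ab1 63, of which 1 nucleus held 33, and 3, and H2-Eb1 80 and 11.

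On the mature side stood signalling, costimulatory and cytokine genes. Cd80, which binds CD28 on T cells, had 17 UMIs over mature-led and 3 over cDC1-led nuclei. Cd274, which encodes PD-L1, had 12 UMIs over mature-led and none over cDC1-led nuclei. Cd86 gave no such split, with 20 and 14 UMIs. The costimulation list as a whole was higher in mature-led nuclei of the control-labelled library (log2 ratio 2.73, 1.91 to 3.72). Of its 60 UMIs in those nuclei, 24 lay in 1 nucleus and 21 in another. Without the first of these nuclei, the control-labelled log2 ratio was 2.28 (1.38 to 3.31). The nucleus with 21 was the one whose mature-led place rested on Il12b, and a value without both nuclei is not given. In the Cxcl12-cKO-labelled library the list was within counting error (0.26, −0.35 to 0.85). Il12b, the p40 chain of IL-12 and IL-23, was found in mature-led nuclei alone, with 40 UMIs in 5 nuclei. A single nucleus of the control-labelled library held 29 of them. Il12b is a gene of the mature list and helped choose these nuclei, so its split is given as description. Il15, a cytokine that sustains T and NK cells, had 24 UMIs over mature-led and 6 over cDC1-led nuclei. Traf1, which relays TNF receptor signals, had 57 and 12 UMIs. Nlrc5, the transactivator of MHC class I genes, had 51 and 11 UMIs, and the MHC class I list was higher in mature-led nuclei of both libraries (log2 ratios 1.08, 0.36 to 1.82, and 0.62, 0.21 to 1.04). The interferon response list was higher too (2.29, 1.62 to 3.06, and 0.68, 0.17 to 1.20), with Mx1, an antiviral GTPase, at 22 and 2 UMIs. A single mature-led nucleus held 44 of the 72 control-labelled UMIs of that list, and without it the first log2 ratio was 1.23 (0.38 to 2.09). Without the mature-led nucleus richest in it under the Cxcl12-cKO label, the second was 0.47 (−0.092 to 1.02). Dpp4, a surface peptidase of conventional dendritic cells, had 54 UMIs in each group.

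Beyond the lists, Arhgap28 had 20 and 22 UMIs in mature-led nuclei under the control and Cxcl12-cKO labels and none in cDC1-led nuclei, at least 10.6-fold and 10.1-fold higher. Mreg, which encodes the organelle-sorting protein melanoregulin, had 14 and 34 UMIs against none, at least 7.42-fold and 15.6-fold higher. Gnb4, a G protein subunit, had 19 and 15 UMIs against none, and Slc4a8, a bicarbonate transporter, 11 and 37 against none. Slc9a9, an endosomal proton exchanger, had 0 and 2 UMIs in mature-led nuclei against 18 and 54 in cDC1-led nuclei. Bcl11a, a transcription factor of dendritic development, had 0 and 1 against 11 and 21, but it is a gene of the plasmacytoid list. These genes were picked after their values were seen. In the nearest-neighbour map, a median of 7 neighbours of a mature-led nucleus were mature-led, against 1 for the other dendritic nuclei. For cDC1-led nuclei, a median of 5 neighbours were cDC1-led, against 1. The map left out the genes of the rule but not those of the lists. Genes that sorted the nuclei could therefore enter it, and it gives no separate support for the groups.

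MHC class II genes were also higher in the 47 dendritic nuclei than in the macrophages and microglia of the same lesions. They were not alone in this. Their measured members had median log2 ratios of 3.72 and 5.29, against 5.59 and 6.18 for the core conventional dendritic list. The comparison nuclei were chosen by their own markers and by the absence of Flt3, so the differences are descriptions. They were 893 control-labelled and 1191 Cxcl12-cKO-labelled nuclei, at medians of 2344 and 2551 UMIs. Of 631 genes with at least 10 UMIs in the 47 nuclei of each library, 26.5% were 2-fold or more higher in the dendritic nuclei in both libraries and 1.74% were lower. The minimum was set on dendritic counts alone, so genes low in these nuclei could not enter and nothing is read from these shares. Summed over the list, dendritic nuclei stood at 4047 CPM (3363 to 4828) labelled control and 5327 CPM (4823 to 5870) labelled Cxcl12-cKO, which was 10.9-fold and 29.7-fold the macrophage and microglia level of 372 and 179 CPM. Without the nucleus of 150 UMIs the second fold was 19.6. The list was found in 15 of 16 and 28 of 31 dendritic nuclei and in 208 of 893 and 237 of 1191 macrophage and microglia nuclei.

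**Figure D3:**
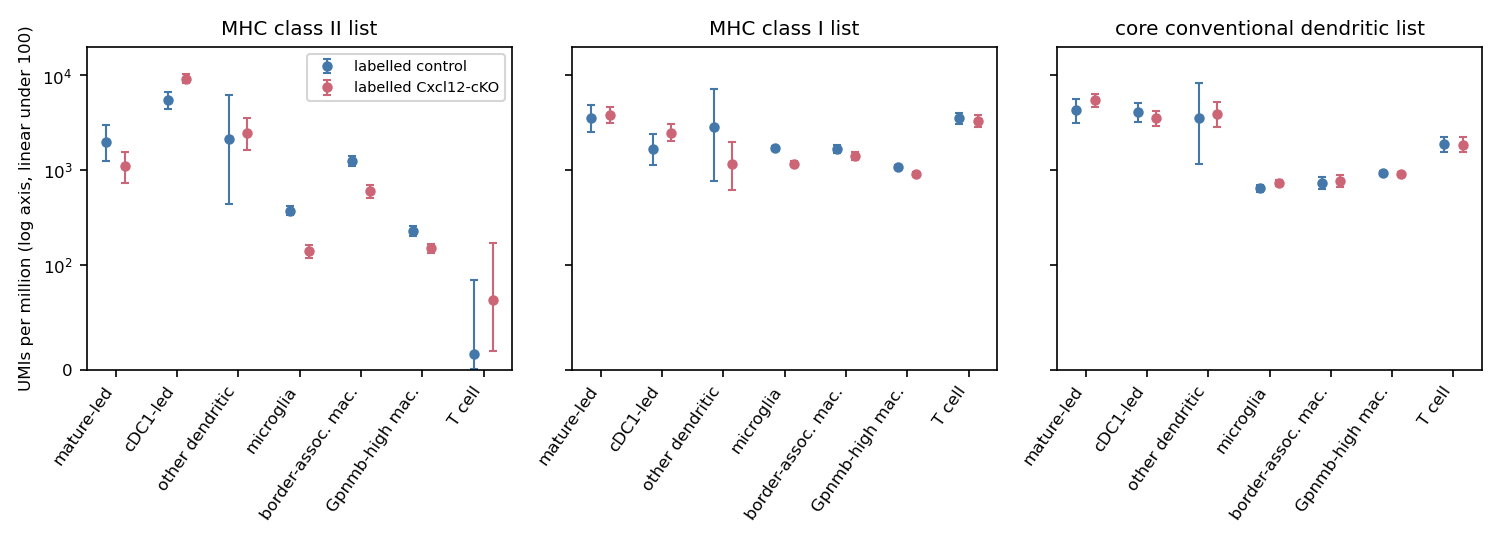
Level of the MHC class II, MHC class I and core conventional dendritic lists, as CPM on a log axis that is linear under 100, in dendritic nuclei led by the mature list, by the cDC1 list or by neither, and in microglia, border-associated macrophages, Gpnmb-high macrophages and T cells (blue, labelled control; red, labelled Cxcl12-cKO; bars, exact Poisson intervals). MHC class II is highest in cDC1-led nuclei and lowest in T cells, whereas MHC class I in T cells reaches the level of mature-led nuclei.

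Other lesional classes spread widely in MHC class II. Border-associated macrophages held 1242 and 599 CPM, of which 41.8% and 57.5% came from 1 nucleus each, microglia 371 and 139 CPM, of which 44.1% and 34.4% came from 1 nucleus each, and Gpnmb-high macrophages 227 and 150 CPM. T cells, which use few of these genes in mice, held 15.3 and 66.5 CPM at medians of 1256 and 1227 UMIs. Mature-led dendritic nuclei, at 1966 and 1093 CPM, were thus closer to border-associated macrophages than cDC1-led nuclei were. Without the mature-led nucleus richest in the list, the control-labelled value was 1121 CPM. MHC class I divided the classes less. The list stood at 2435 and 2768 CPM in dendritic nuclei, at 1377 and 1030 CPM in macrophages and microglia, and at 3511 and 3307 CPM in T cells.

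The promoters of MHC class II genes carry a conserved module whose Y box binds NF-Y, and CIITA is recruited to that module. In the RefSeq promoters of GRCm38.p6, 8 of the 11 listed genes had an entry, and the Y box letters CTGATTGG, searched on both strands in the 250 bases before the start site, stood in 4 of these 8. Over all 32851 promoters 3.83% held them. Windows of 30 bases around the match are shown for these 4 genes, with the match in capitals. The genes were taken because their list was higher in dendritic nuclei than in macrophages and microglia.
H2-Oa, chr17:34092322-34092351, plus strand: agagaactgctCTGATTGGctgcttaccgc
H2-Aa, chr17:34287856-34287885, minus strand: aagagaattttCTGATTGGttctggcgagt
H2-Eb1, chr17:34305794-34305823, plus strand: ctcctttgatgCTGATTGGctcccagcact
H2-Eb2, chr17:34325561-34325590, plus strand: gctcttggctgCTGATTGGttcttcagcac
The match began 46, 51, 62 and 103 bases before the start site of H2-Oa, H2-Aa, H2-Eb1 and H2-Eb2. The letters were chosen after these promoters had been read, and a match is a description and no evidence of binding. Over the 47 nuclei, H2-Aa had 80 UMIs, H2-Eb1 99, H2-Oa 4 and H2-Eb2 1.

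The 20 genes highest in dendritic nuclei over macrophages and microglia, ranked by the smaller of the ratios in both libraries, were led by Il12b and Lpar3. Il12b had 30 and 10 UMIs in dendritic nuclei and none in macrophages and microglia, at least 814-fold and 159-fold higher, with the single nucleus noted above behind most of the first count. Lpar3, a lysophosphatidic acid receptor, had 10 and 13 UMIs against 0 and 1. Dpp4 had 35 and 81 UMIs against 2 and 10, a log2 ratio of 8.54 (7.65 to 9.71) in the Cxcl12-cKO-labelled library. Stat4, which relays IL-12 receptor signals, had log2 ratios of 7.26 (6.22 to 8.43) and 7.77 (6.86 to 8.91). Cacnb3, a calcium channel subunit of mature dendritic cells, had log2 ratios of 7.04 and 7.11, Plbd1, a lysosomal phospholipase, 6.35 and 7.38, and Ap1s3, an adaptor subunit, 6.35 and 6.18. Traf1 stood at 5.59 and 7.57, Gpr132, a lipid-sensing receptor, at 5.81 and 5.47, and Cytip, which restrains cell adhesion, at 5.33 and 5.16. Ly75, which encodes the endocytic receptor DEC-205, stood at 7.03 and 4.77, and Cbfa2t3, a corepressor of dendritic development, at 4.84 and 5.77. Ciita (4.57 and 6.20) and H2-Eb1 (4.90 and 6.26) were the MHC class II genes among them, and Slc4a8 (5.92 and 6.32), Arhgap28 (6.35 and 5.34) and Tmem123 (4.65 and 5.24) were also in the group. Gm36723, Gm15987 and Gm57204, genes without an assigned function, made up the rest.

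**Figure D4:**
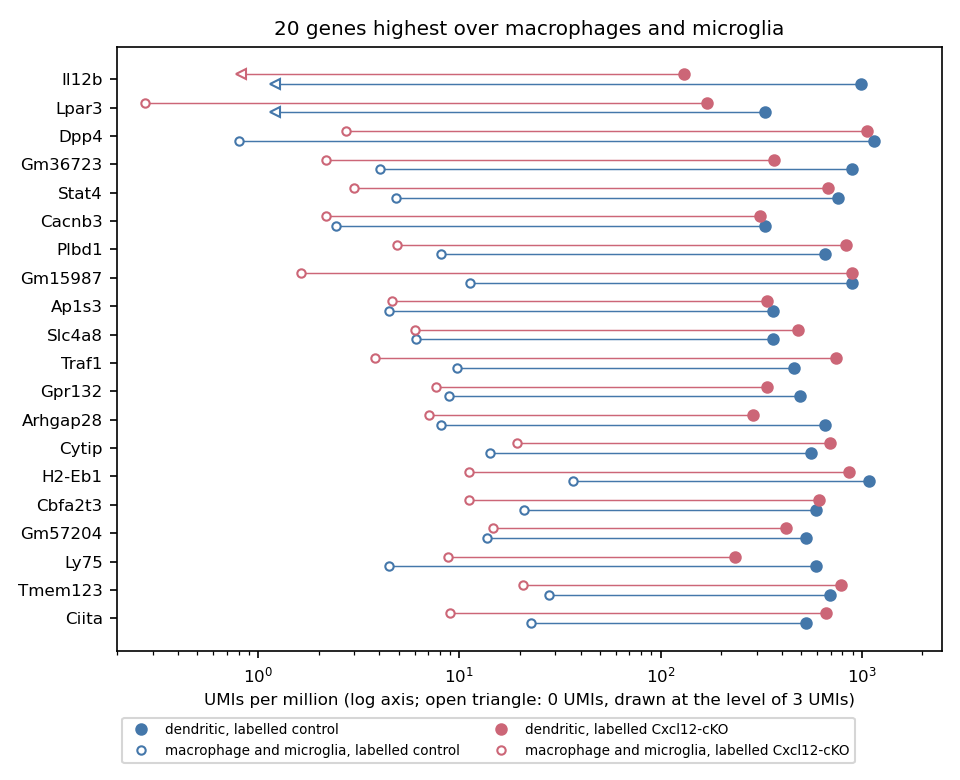
Level of the 20 genes in the 47 dendritic nuclei (filled) and in macrophages and microglia (open), as CPM on a log axis, in the libraries labelled control (blue) and Cxcl12-cKO (red), with open triangles at the level of 3 UMIs where none was counted. Filled points lie between 131 and 1152 CPM and open ones at 36.8 CPM or lower.

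Summed UMIs of the core, mature and cDC1 lists pointed the same way. The core conventional dendritic list was 5.18-fold and 5.07-fold the macrophage and microglia level, and the mature list 7.30-fold and 6.03-fold. The cDC1 list was 3.63-fold and 2.68-fold higher in sum. Of its 3 genes with enough UMIs, only 1 was 2-fold or more higher in both libraries. Their median log2 ratios were 0.36 and 0.59, against 0.81 and 0.50 over all genes, so the sum does not describe the list as a whole. The cDC2 list was lower (log2 ratios −1.17, −1.97 to −0.55, and −1.06, −1.50 to −0.68), with Sirpa and Itgam, which macrophages also use, among its 12 genes. Over the 53 nuclei the background was 28.4% of 1804 genes higher and 5.49% lower, and 9 of the 20 genes ranked first were not among those named above. Hs6st3, Tafa1, Fstl4, Rimbp2 and Cntn4 were among these 9, and neurons use them.

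Genes through which dendritic cells could sense a lesion were sparse. Cxcr4, the CXCL12 receptor, had 0 UMIs in the control-labelled library and 1 in the Cxcl12-cKO-labelled library, which at these depths allows up to 98.7 CPM in the first and gives 13.1 CPM (0.331 to 72.7) in the second. Gpnmb-high macrophages, with many more UMIs, held 24.3 and 28.4 CPM, so a level like theirs could not have been told from 0. Ackr3 had none, and Cxcl12 itself had 0 and 1 UMIs. Gpr183, an oxysterol receptor that positions dendritic cells, had 5 and 13 UMIs and Ccr2 had 2 and 4. Of chemokine ligands, Cxcl16, the ligand of CXCR6 on T cells, had 6 UMIs in each library, and Cxcl10, an interferon-induced ligand of CXCR3, had 6 and 1, the 6 in 1 nucleus. Tlr3, the double-stranded RNA sensor of cDC1, had 6 and 5 UMIs, none in mature-led nuclei.

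Between the libraries, dendritic nuclei differed in ways that hung on a few nuclei. Over the 53 nuclei, 13.7% of 2412 genes with at least 20 UMIs were 2-fold or more higher in the Cxcl12-cKO-labelled library and 12% were lower. The MHC class II list was at 1251 and 3400 CPM, a log2 ratio of 1.44 (1.15 to 1.74), with 5 of 5 measured members higher, 4 of them 2-fold or more. Without the nuclei with neuron genes, it was at 4047 and 5327 CPM, a log2 ratio of 0.39 (0.10 to 0.70). A single nucleus of the Cxcl12-cKO-labelled library, with 2962 UMIs, held 150 of the 408 UMIs there, and without it the log2 ratio was −0.21 (−0.52 to 0.11). Per nucleus, the median was 8 MHC class II UMIs (0 to 21) in the control-labelled library and 5 (0 to 150) in the Cxcl12-cKO-labelled library, and the ranges overlapped. The mature list went from a log2 ratio of 0.79 over 53 nuclei to −0.19 (−0.48 to 0.11) over 47 and 0.27 (−0.067 to 0.63) without its richest nucleus, and the core conventional dendritic list from 0.98 to 0.04 (−0.26 to 0.35).

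**Figure D5:**
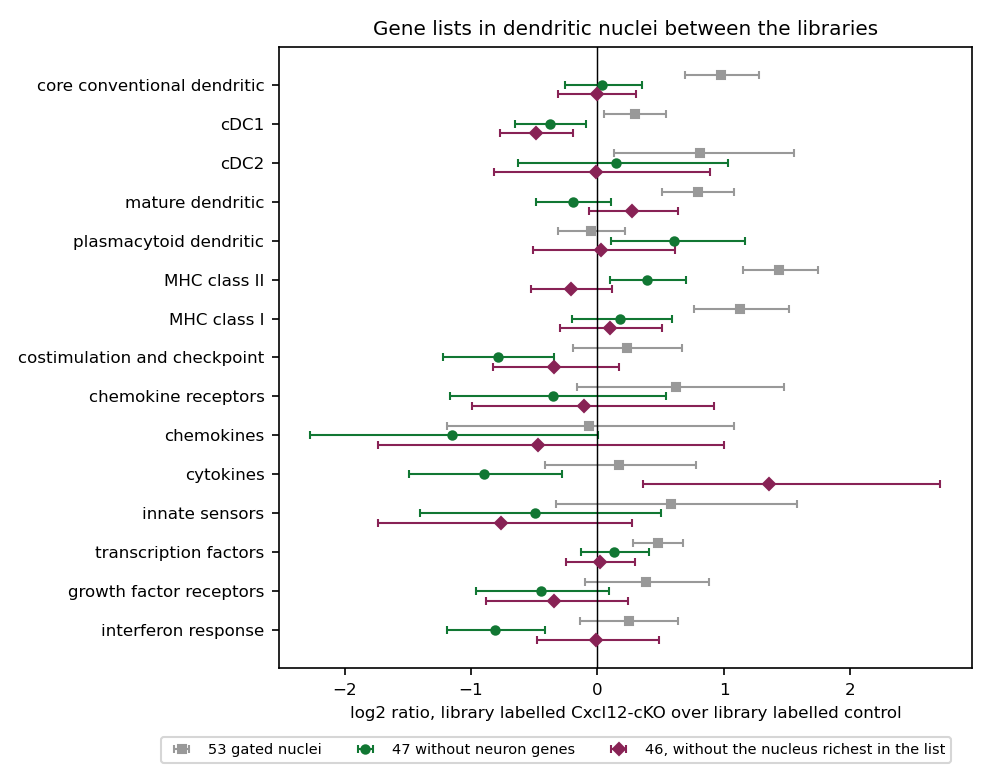
Log2 ratio of each gene list, Cxcl12-cKO-labelled library over control-labelled library, in the 53 nuclei (grey squares), the 47 without neuron genes (green circles) and the 46 left when the nucleus richest in that list is also set aside (purple diamonds), with 95% exact intervals for counting error. Of 15 lists, 7 have intervals that leave out 0 over 53 nuclei and 6 over 47, and the cytokine, MHC class II, mature, core and cDC2 lists change sign between the circle and the diamond.

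Cytokine genes showed the same dependence. Over the 47 nuclei the cytokine list was lower in the Cxcl12-cKO-labelled library (log2 ratio −0.90, −1.49 to −0.28), and 34 of the 42 UMIs labelled control came from 1 mature-led nucleus. Without it the log2 ratio was 1.36 (0.36 to 2.71). Il15 had 4 UMIs in 4 nuclei labelled control and 26 UMIs in 12 nuclei labelled Cxcl12-cKO, at 132 CPM (35.9 to 337) and 339 CPM (222 to 497). The interferon response list was at 3126 and 1789 CPM (log2 ratio −0.81, −1.19 to −0.41), and 1 nucleus labelled control held 44 of its 95 UMIs there, without which the log2 ratio was −0.01 (−0.48 to 0.49). The costimulation list was at 2500 and 1449 CPM (−0.79, −1.22 to −0.35), and −0.34 (−0.82 to 0.17) without its richest nucleus. The cDC1 list was at −0.38 (−0.65 to −0.091). Without its richest nucleus, which was labelled Cxcl12-cKO and held 45 UMIs, it was at −0.49 (−0.77 to −0.19). Without the control-labelled nucleus richest in it, the cDC1 list was at −0.11 (−0.41 to 0.21). The plasmacytoid list was at 0.61 (0.10 to 1.17) and then 0.03 (−0.51 to 0.61), as 1 nucleus labelled Cxcl12-cKO held 53 of its 151 UMIs there.

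Single genes were as sparse. Over the 47 nuclei, 8.26% of 1211 genes were 2-fold or more higher in the Cxcl12-cKO-labelled library and 8.26% were lower. The direction was the same in both mice for 48.4% of the genes. Dab2, an endocytic adaptor, had no UMI in the 16 nuclei labelled control and 35 in those labelled Cxcl12-cKO, at least 4.63-fold higher, spread over 10 nuclei of which the richest held 10. Mast4, a microtubule-associated kinase, had 0 and 22 UMIs, at least 2.91-fold higher, in 13 nuclei with at most 3 UMIs each. Dscaml1 had 1 and 28 UMIs (log2 ratio 2.91, 0.88 to 8.83), and Grm8, a glutamate receptor, 1 and 22, of which 1 nucleus held 16. Zdhhc20, Gria3, Pitpnc1 and Ube2h had 1 UMI each in the control-labelled library and 19 or 20 in the Cxcl12-cKO-labelled library. Among the lower genes, Stat5b, which relays GM-CSF and other cytokine signals, had 24 and 15 UMIs (−1.99, −3.05 to −1.02) in 18 nuclei, of which the richest held 12. Cadm1, an adhesion molecule of cDC1, had 21 and 15 UMIs (−1.81, −2.88 to −0.79), with 12 in 1 nucleus. Zdhhc14 stood at −2.20, Arsb, a lysosomal sulfatase, at −2.15, Spire1 at −2.00, P3h2 at −1.94, Clic4 at −1.90 and Arid5b at −1.82, with 21 to 35 UMIs each over both libraries. Over the 53 nuclei the same rule named Dab2, Ttc7, Ahnak, Gm16685, Pspc1, Fscn1, Pola1 and Arhgef3 as higher and Il1rapl2, Htr1f, Galntl6, Grip1, Thsd7a, Ryr3, Ptprm and Kazn as lower. Il1rapl2 had 189 and 4 UMIs, 161 of them in 1 nucleus.

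Transcription factors and growth factor receptors gave no list-wide difference over the 47 nuclei. The transcription factor list had a log2 ratio of 0.13 (−0.13 to 0.41), and the growth factor receptor list −0.45 (−0.96 to 0.091). Within the first, Ikzf1, which encodes Ikaros, had 9 and 52 UMIs, at 296 CPM (135 to 562) and 679 CPM (507 to 890). Tcf4, a factor of plasmacytoid dendritic cells, had 9 and 63 UMIs, and Zeb2, which favours cDC2 and plasmacytoid fates, had 24 and 30. Tcf4 is a gene of the plasmacytoid list, of whose 151 UMIs labelled Cxcl12-cKO 1 nucleus held 53. Id2, which restrains the plasmacytoid programme, had 16 and 30 UMIs. Csf2ra, the GM-CSF receptor α-chain, had 12 UMIs in 8 nuclei labelled control and 7 UMIs in 7 nuclei labelled Cxcl12-cKO, at 395 CPM (204 to 690) and 91.4 CPM (36.7 to 188). Csf2rb, the shared β-chain, had 10 and 15 UMIs with overlapping intervals. Dividing genes had no UMI in the control-labelled library and 21 in the Cxcl12-cKO-labelled library, and 19 of these lay in 1 cDC1-led nucleus, the deepest of the 47.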

How the data were processed

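Nuclei of PT lesions and of parenchyma were tagged, pooled by genotype and sequenced as 1 gene expression library per genotype, with 10x 3′ chemistry. The submitters' processing notes name Cell Ranger 9.0.0 and GRCm39. The 4 deposited matrices hold whole-number counts of UMIs per gene and per tag that the authors made and did not normalise. Barcodes with at least 757 gene UMIs, the 2.5 percentile over all barcodes, were kept. Depth per lesional nucleus had medians of 2941 and 2923 UMIs, which sets the intervals. Nuclei were assigned to a mouse from Xist and Y-linked counts. UMIs were summed over nuclei, given as counts per 1000000 UMIs (CPM), and compared as log2 ratios with 0.5 UMI added to each sum. Intervals were exact, binomial for shares and for ratios of sums, and Poisson for CPM. A gene with no UMI in a group was set at 3 UMIs for a lower bound of its fold. Genes called had at least 20 UMIs over both libraries, or 10 in each where nuclei of a library were compared with each other, and a ratio of 2-fold or more.

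The rule for named genes took, between libraries, the 8 highest and 8 lowest genes past that fold with the same direction in both mice, and, over macrophages and microglia, the 20 with the largest smaller ratio. It was applied to the 53 nuclei and repeated for the 47. The members and lists were chosen with earlier results of these data known, and the set of 47 after seeing the data. Alternatives were other gate sums, gates without single genes, nuclei weighted alike, single mice and other minimum counts. Scripts ran in Python 3.11.15 with scikit-learn 1.9.0 for neighbours, scipy 1.17.1 for intervals, and numpy 2.4.6 with pandas 2.3.3 for tables, and the calculations were tested on simulated data. With 1 library per genotype there was no test, and UMI intervals cover counting error only. A few listed genes are not reported here.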

Additional observations from a re-analysis of the deposited data

Results flagged for a closer look

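In the 47 dendritic nuclei without neuron genes, 5 gene lists had opposite directions between the libraries in female and in male mice, given as log2 ratios, Cxcl12-cKO over control label. The cDC1 list stood at 0.26 (−0.12 to 0.66) for females and −2.56 (−3.58 to −1.69) for males. The cDC2 list stood at 0.25 (−0.77 to 1.5) and −0.60 (−2.43 to 1.44). The MHC class I list stood at 0.22 (−0.27 to 0.74) and −0.66 (−2.35 to 1.18). The costimulation list stood at −0.89 (−1.45 to −0.31) and 1.07 (−0.38 to 3.22). The interferon response list stood at −1.53 (−2.01 to −1.05) and 0.31 (−1.34 to 2.52). These differences between the mice were not tested, and the male values rest on 2 and 4 nuclei.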

How the results depend on the processing

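Of 834 alternative values, 697 stayed within their interval and direction, 115 lay outside it and 22 changed direction. All log2 ratios of the share of dendritic nuclei kept their direction. The cause of each shift was not tested.

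Among the 53 nuclei, leaving out those with neuron genes gave log2 ratios between libraries of −0.38 for the cDC1 list, −0.19 for the mature list and 0.39 for MHC class II, with 100 genes higher and 100 lower. Weighting nuclei alike gave −0.52 for cDC1, 0.36 for MHC class II and 11 lists with intervals leaving out 0. A gate sum of 2 gave 2.35 for MHC class II, 14 such lists, 535 genes higher and 3 lists, in place of 5, higher than in other immune nuclei. Leaving out nuclei with RNA of both sexes gave 2.34, 13 lists, 527 genes higher and 481 lower. This setting dropped the 2 neuron-gene nuclei labelled Cxcl12-cKO and none of the 4 labelled control. Female and male mice alone likewise kept 2 such nuclei each labelled control and 0 labelled Cxcl12-cKO. MHC class II stood at 1.07 in female mice, 3.09 in male mice and 0.82 without its richest nucleus. Female mice gave 217 genes higher. Male mice gave 80 genes higher, 0 lists higher than in other immune nuclei, and 0% mature-led and 25% cDC1-led nuclei labelled control. A minimum of 10 UMIs gave 748 genes higher and 539 lower, and of 1 UMI 3964 and 2862. Without Wdfy4 the cDC1 list led 21.2% of nuclei labelled Cxcl12-cKO.

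Among the 47 nuclei, a gate sum of 2 gave log2 ratios of 0.21 for cDC1, −0.26 for plasmacytoid, 1.35 for MHC class II and −0.21 for Gria3, with 197 genes higher and 187 lower. A sum of 4 gave −0.014 for plasmacytoid, 0.72 for MHC class II and 1.39 for cytokines. A gate without Ccr7 and Btla gave 0.36 for costimulation, 1.48 for cytokines and 0.043 for interferon response. Female mice gave 0.26 for cDC1, −0.056 for MHC class II, 0.82 for cytokines and 64 genes higher. Male mice gave −0.52 for MHC class II, 1.07 for costimulation, 2.66 for cytokines, 0.31 for interferon response, 3 lists leaving out 0, 4 genes higher, 11 lower, and 0% mature-led nuclei labelled control. There the mature list over macrophages and microglia stood at −2.00 labelled control, and 2 lists were higher than in other immune nuclei. Without its richest nucleus MHC class II stood at −0.21, and the cytokine list at 1.36. The nucleus richest in a list was set aside in each library as a choice made after seeing the data. Adding 2 UMIs gave 51 genes higher. A minimum of 10 UMIs gave 304 higher and 311 lower, and of 1 UMI 1423 and 2612. Without Wdfy4 the cDC1 list led 22.6% of nuclei labelled Cxcl12-cKO.

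No paired analysis was possible because each genotype had 1 library. Leaving out a replicate was not run, for lack of any. Depth limits all single-gene values.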
